A study of Mus musculus with 6 samples.

Results

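Transcripts of 38 lysosomal genes were examined in microglia from mouse cerebellum. The genes were fixed by name: 17 hydrolases, 3 soluble activator or carrier proteins, 8 proteins of the lysosomal membrane or its markers, 9 genes of the proton pump, and the transcription factor gene Tfeb. All 38 had a row among the 23491 gene symbols of the count table, and all 38 were among the 14727 genes tested. All mice were labelled Fmr1 knock out, a genotype used to model fragile X syndrome, so no wild-type group is part of the comparison. Reads over Fmr1 were present in all 6 libraries, between 1243 and 2205 counts, and since the labels do not say which part of the gene is removed, they do not check the genotype. One group of 3 libraries came from mice given saline, which the titles call sham, and the other 3 came from mice given poly(I:C), a synthetic double-stranded RNA that mimics viral infection, into the peritoneal cavity. Cells had been enriched from perfused cerebella with magnetic beads that bind CD11b, an integrin of microglia and other myeloid cells. The labels give no strain, age, dose or time after injection, and do not say whether a library was 1 animal or a pool. The p-values therefore measure the variation among these libraries, part or all of which may be technical.

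Lysosomes break down proteins, lipids, glycans and nucleic acids with acid hydrolases. The vacuolar proton pump, or V-ATPase, keeps the lumen acid by coupling ATP hydrolysis in its peripheral V1 sector to proton transport through its membrane V0 sector. Microglia clear debris and synaptic material through this compartment, and inherited loss of many of the enzymes listed here causes lysosomal storage disease, often with damage to the brain. TFEB, a basic helix-loop-helix factor, binds E-box motifs in the promoters of many lysosomal genes and is held in the cytoplasm when mTORC1 at the lysosome is active.

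The E-box was searched for in RefSeq promoters (build GRCm38.p6, 250 bases before to 50 after an annotated start site). It was not part of the rule that chose the members. As a known motif of lysosomal promoters, it is not independent of their being lysosomal genes. Of the 38 genes, 34 matched the promoter table by symbol, with 40 promoters between them, and Asah1, Atp6v1b2, Atp6v1h and Npc1 had no entry. The motif CACGTG, which reads the same on both strands, was in at least 1 promoter of 11 of the 34 genes (32.4%), against 8.09% of the 27025 genes in the table. The longer form TCACGTGA, which contains it, was in 5 of the 34 (14.7%), against 1.12% of all genes. With a further G before and C after, the 10-base form was in 1 of the 34, Cln3, against 0.37% of all genes. These are counts of letters, and no binding was measured. The shares of all genes cover the whole promoter table, not the genes tested, and were not matched for base composition. The 11 genes are shown over 44 bases each, read 5′ to 3′ along the gene with the E-box in capitals, to show which members carry it and with which flanks. The positions are those of GRCm38.p6, an earlier build than that of the counts.

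Cln3, chr7:126583331-126583374, minus strand: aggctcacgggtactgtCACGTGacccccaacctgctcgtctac
Lamp1, chr8:13159083-13159126, plus strand: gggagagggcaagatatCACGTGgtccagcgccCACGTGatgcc
Mcoln1, chr8:3500457-3500500, plus strand: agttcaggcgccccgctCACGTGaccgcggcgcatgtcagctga
Gaa, chr11:119267806-119267849, plus strand: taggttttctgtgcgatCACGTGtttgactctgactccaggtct
Gla, chrX:134601206-134601249, minus strand: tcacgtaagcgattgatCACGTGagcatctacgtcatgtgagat
Glb1, chr9:114401013-114401056, plus strand: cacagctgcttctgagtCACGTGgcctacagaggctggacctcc
Naglu, chr11:101070004-101070047, plus strand: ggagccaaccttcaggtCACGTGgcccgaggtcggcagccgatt
Sgsh, chr11:119355513-119355556, minus strand: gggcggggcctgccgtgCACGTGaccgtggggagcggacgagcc
Atp6v0b, chr4:117887339-117887382, minus strand: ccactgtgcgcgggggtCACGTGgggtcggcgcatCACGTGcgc
Atp6v0d1, chr8:105566041-105566084, minus strand: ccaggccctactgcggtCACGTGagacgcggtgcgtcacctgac
Atp6v1a, chr16:44139364-44139407, minus strand: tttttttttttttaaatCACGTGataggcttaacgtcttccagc

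Lamp1, the gene of a major glycoprotein of the lysosomal membrane, had 4 E-boxes, starting at -61, -45, -28 and -15 bases from the start site. Its whole window (chr8:13158911-13159210, plus strand) is shown because no other member had as many within 300 bases.
Lamp1: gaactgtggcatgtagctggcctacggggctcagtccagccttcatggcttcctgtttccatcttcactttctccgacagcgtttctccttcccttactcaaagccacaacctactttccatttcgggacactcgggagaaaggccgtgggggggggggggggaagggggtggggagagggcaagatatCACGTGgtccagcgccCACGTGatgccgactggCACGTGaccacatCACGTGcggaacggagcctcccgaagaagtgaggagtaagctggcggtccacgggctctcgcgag
Cln3, a lysosomal membrane protein gene mutated in juvenile Batten disease, had E-boxes at -149 and -121 in 1 of its 2 promoters (chr7:126583187-126583486, minus strand), which is shown because Cln3 is also among the members with the largest differences below.
Cln3: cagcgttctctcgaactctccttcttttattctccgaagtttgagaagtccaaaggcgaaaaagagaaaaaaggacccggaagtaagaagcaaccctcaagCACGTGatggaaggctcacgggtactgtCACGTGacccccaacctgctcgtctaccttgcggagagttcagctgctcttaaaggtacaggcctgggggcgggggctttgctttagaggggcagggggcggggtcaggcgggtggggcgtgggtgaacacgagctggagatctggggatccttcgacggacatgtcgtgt
Of the 3 Tfeb promoters in the table, 0 held the motif.

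**Figure D1:**
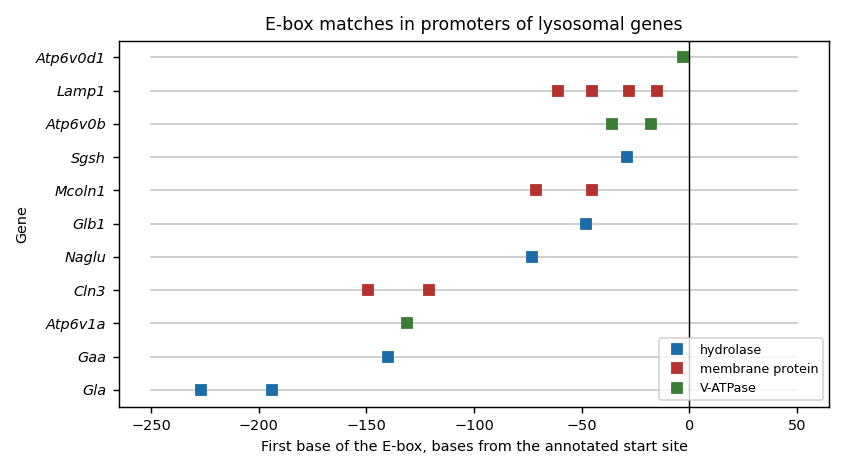
Position of each CACGTG match in the promoters of 11 lysosomal genes, in bases from the annotated start site (vertical line), with grey lines for the window searched and colours for the role of the gene. Matches lie between -227 and -3, and Lamp1 has 4.

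Counts are given as CPM, read counts scaled by the library total with a TMM correction. Levels are compared between members only as CPM per kb of annotated exon. On that scale Psap was highest in saline at 1942 CPM per kb, followed by Laptm5 at 796 and Grn at 502. Psap encodes the precursor of the saposins, which present lipids to hydrolases. It ranked 6 of all tested genes by its mean CPM in saline, a rank that does not correct for exon length. Hexa, the alpha subunit of beta-hexosaminidase, was next at 415 CPM per kb, beside Cd68, a macrophage glycoprotein of late endosomes and lysosomes, at 406 and Lamp1 at 375. The saline libraries of Hexa and Cd68 overlapped in level, and so did those of Cd68 and Lamp1. The lowest members were Gla, alpha-galactosidase A, at 3.21 CPM per kb and Atp6v1h, the regulatory H subunit of V1, at 3.69. Those levels also overlapped between libraries. Within the V-ATPase, the accessory gene Atp6ap1 stood at 139.9 CPM per kb and Atp6v0b at 127, both above Atp6v1a at 17.9 and Atp6v1b2 at 39.1, the catalytic A and the B subunit of V1. Annotated exon length counts every isoform, so a gene with a rarely used long exon appears lower than it is.

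**Figure D2:**
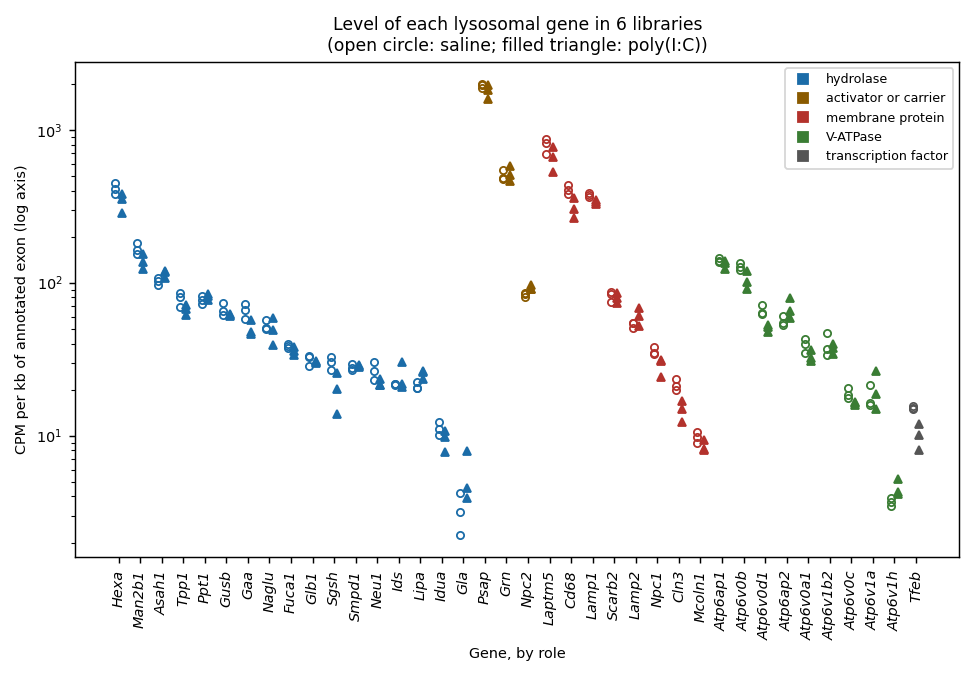
Level of each of the 38 genes in single libraries, as CPM per kb of annotated exon on a log axis, with open circles for saline, triangles for poly(I:C) and colours for the role. Levels run from Gla and Atp6v1h near the bottom to Psap at the top, and the groups lie close together for most genes.

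Some libraries stood apart, and RNA of other cells was present. The library of poly(I:C) replicate 1 had the lowest value of the 6 for 23 of 38 members and the highest for 8, while saline replicate 3 had the highest value for 18. Library totals were between 33710545 and 34899835 counts, and the member with the fewest reads in any library, Gla, had 254. The 9 microglial markers with a row, all detected, summed to between 35014 and 40784 CPM in saline, 27563 CPM in poly(I:C) replicate 1, and 38088 and 35427 CPM in the other poly(I:C) libraries. The 10 choroid plexus markers, all detected, summed to between 3993 and 8542 CPM in saline and between 7677 and 19461 CPM in poly(I:C), the top value being in poly(I:C) replicate 1. The 13 neutrophil markers, all detected, summed to 20794 CPM in saline replicate 1, 2475 and 2382 CPM in the other saline libraries, and between 484 and 2240 CPM in poly(I:C), so these sums did not overlap between groups. The 6 monocyte markers summed to 2213 CPM in saline replicate 1 and to between 269 and 635 CPM in the other libraries, and no gene of the 11 marker lists examined was called. Neutrophils, monocytes and choroid plexus cells have lysosomes too, and the part of these cells in the members' values was not tested. Fewer cells of a type and less RNA per cell cannot be told apart in such bulk libraries. With replicate 1 of each group left out, 34 of 38 members kept their sign and 0 were called by edgeR. Few of all genes were called in that setting either, as the counts near the end show, so this 0 is not a result about the members.

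**Figure D3:**
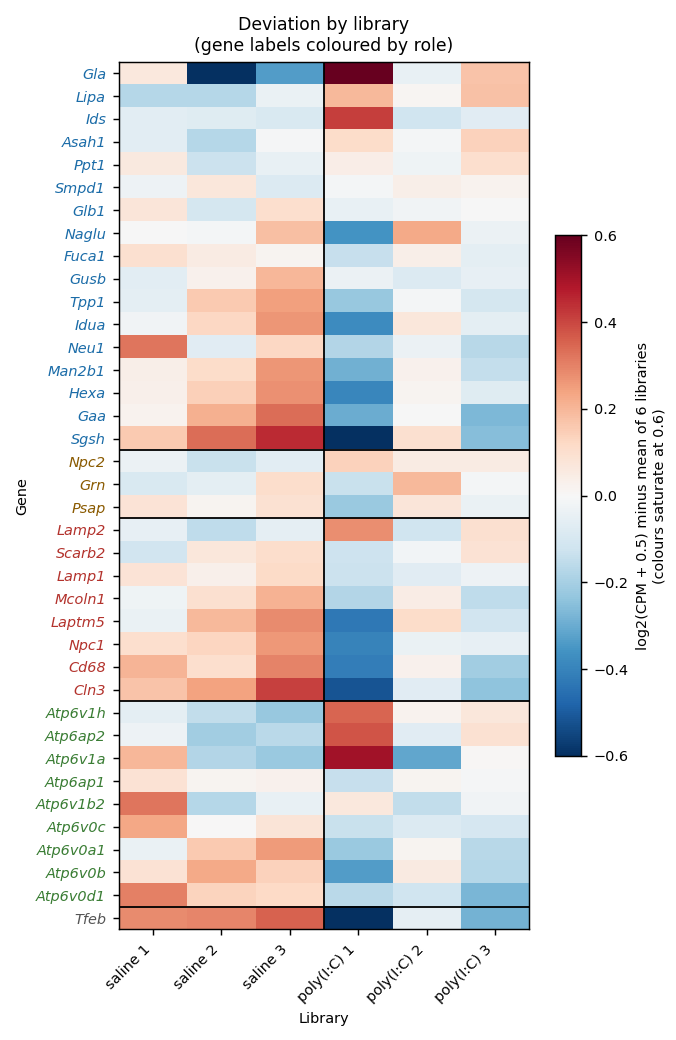
Deviation of each gene in each library from its mean over the 6 libraries, on the log2(CPM + 0.5) scale, in rows grouped by role (label colours) and columns by library. The column of poly(I:C) replicate 1 holds the lowest value for 23 of 38 genes and the highest for 8.

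Libraries after poly(I:C) were set against those after saline to see whether a viral mimic given outside the brain is followed by different levels of lysosomal transcripts. No member passed the test. With edgeR (quasi-likelihood F, Benjamini-Hochberg adjusted across all 14727 genes), 0 of 38 were called higher, where 0.883% of all tested genes were, and 0 were called lower, where 0.0747% were. Given those shares, a count of 0 among 38 genes is near the background and is not a result about the members. At an unadjusted p under 0.05 there were 2 higher members and 9 lower ones (23.7%), beside 10.5% higher and 10.8% lower among all genes. The log2 difference was below 0 for 26 of the 38 (68.4%), against 48.9% of all genes tested, with a median of −0.12 against 0.01. That median was −0.045 with libraries scaled by their totals only, −0.18 without poly(I:C) replicate 2 and −0.06 without both replicates 1. The CPM values of the groups did not overlap for 12 lower members (31.6%), beside 14.3% of all genes, and for 3 higher members (7.89%), beside 14.0%, or 15 in all (39.5%) beside 28.4%. Adjusted p-values below are edgeR's over all genes, and intervals 95%, unless another tool is named.

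The differences were small, and the intervals show how large they could be. The 95% interval of the log2 difference, not adjusted for the number of genes, lay within 2-fold in either direction for 36 of 38 members (94.7%), against 63.8% of all genes. It lay within 1.5-fold for 28 members (73.7%), against 40.9% of all genes. Interval width follows the SE, whose median was 0.118 for the members and 0.172 for all genes. The log2 difference itself was within 0.25 of 0 for 21 members (55.3%), against 49.9% of all genes. The exceptions at 2-fold were Gla, whose interval reached 1.56, and Sgsh, whose interval reached −1.10. Other tools called more genes in the same data. DESeq2 called 0 members higher, where it called 4.26% of the 13548 genes to which it gave an adjusted p, and 3 lower, where it called 4.18%. The corresponding limma-voom calls, made with sample quality weights, were 1 higher member beside 8.61% and 11 lower members beside 10.9%. The 3 from DESeq2 were Tfeb, Cln3 and Atp6v0d1, and limma-voom called those too.

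**Figure D4:**
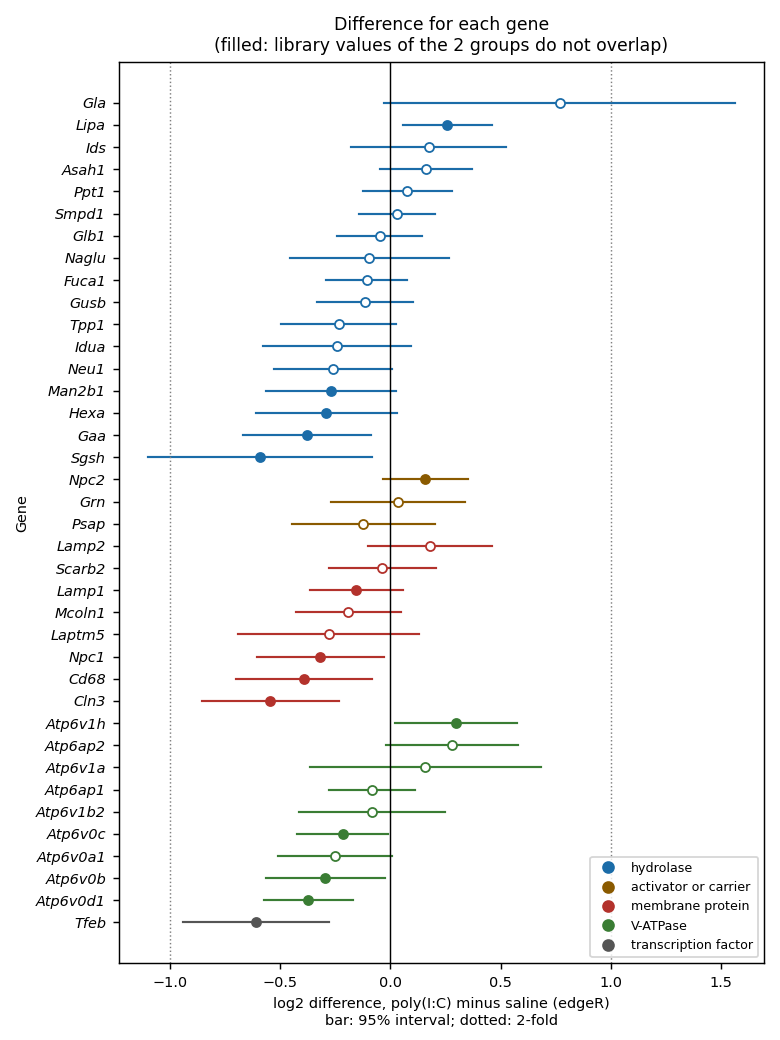
The log2 difference of poly(I:C) minus saline for each gene from edgeR, with 95% intervals as bars, dotted lines at 2-fold, colours for the role, and filled points where the 3 saline and 3 poly(I:C) libraries do not overlap. All points except Gla, Sgsh, Cln3 and Tfeb lie between −0.39 and 0.30, and 26 of 38 are left of 0.

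Tfeb and Sgsh had the largest negative differences of the 38 in edgeR with all libraries. Sgsh was the lower of the pair under limma-voom (−0.62 against −0.61) and with replicate numbers as a block (−0.630 against −0.625). It was also the lower without saline replicate 1 (−0.66 against −0.62) and without poly(I:C) replicate 2 (−0.82 against −0.75). The Tfeb libraries stood at 84.9, 85.4 and 89.1 CPM after saline, close to each other, and at 45.9, 67.1 and 57.1 CPM after poly(I:C). All 3 poly(I:C) libraries were below all 3 saline libraries, and poly(I:C) replicate 1 was the lowest. The mean was 86.5 ± 2.32 CPM after saline and 56.7 ± 10.7 CPM after poly(I:C) (SD, n = 3 each), a 1.53-fold difference that did not pass edgeR's test (log2 −0.61, SE 0.14, interval −0.94 to −0.28, adjusted p = 0.120). DESeq2 called it at an adjusted p of 0.00907 and limma-voom at 0.00696. Without replicate 1 of either group the log2 difference was −0.47 (edgeR adjusted p = 0.0659).

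Among the 17 hydrolases, 6 differences were above 0 and 11 below, with a median of −0.11, and 0 were called. Sgsh, the sulfamidase of heparan sulfate breakdown, had the largest negative value (log2 −0.59, SE 0.21, interval −1.10 to −0.08, adjusted p = 0.200). Its libraries were at 118, 133 and 144 CPM after saline and 61.2, 113 and 88.4 CPM after poly(I:C). The groups did not overlap, though poly(I:C) replicate 2 came close to saline replicate 1 and poly(I:C) replicate 1 lay far below. Of the annotated exon of Sgsh, 21.6% overlaps Card14 on the opposite strand, and the sources used here do not say that reads were counted by strand. Gaa, acid alpha-glucosidase, which degrades lysosomal glycogen, was at 277, 317 and 345 CPM after saline and 222, 273 and 227 CPM after poly(I:C). The highest poly(I:C) library was just under the lowest saline library (log2 −0.38, SE 0.12, interval −0.67 to −0.09, adjusted p = 0.179). Neu1, a sialidase, was at 112, 85.6 and 98.1 CPM after saline and 79.4, 87.7 and 80.1 CPM after poly(I:C), with poly(I:C) replicate 2 inside the saline range (log2 −0.26, SE 0.11, interval −0.53 to 0.01, adjusted p = 0.240). Hexa and Man2b1, the lysosomal alpha-mannosidase, also did not overlap between groups, at log2 differences of −0.29 and −0.27. Of the annotated exon of Hexa, 12.8% overlaps Tmem202 on the opposite strand.

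Lipa, the lysosomal acid lipase that hydrolyses cholesteryl esters, had a difference above 0. It was at 139, 139 and 152 CPM after saline and 179.8, 158 and 178 CPM after poly(I:C). Every poly(I:C) library was above every saline library, by a small margin (log2 0.26, SE 0.09, interval 0.06 to 0.46, adjusted p = 0.185). Lipa was the only hydrolase above 0 without overlap, and it was called higher by limma-voom alone (adjusted p = 0.0334). Gla, with the fewest reads of the members, had the largest positive difference, 0.77, with overlapping libraries between 7.33 and 13.8 CPM in saline and between 12.7 and 25.9 CPM in poly(I:C). Its highest value was in poly(I:C) replicate 1, and without that library the difference was 0.42 (edgeR adjusted p = 0.513). Each of the remaining 10 hydrolases overlapped between groups. Of these, Glb1, Gusb, Naglu, Fuca1, Tpp1 and Idua had log2 differences between −0.24 and −0.05, and Ids, Asah1, Smpd1 and Ppt1 between 0.03 and 0.17. They cover sphingolipids (Asah1, Smpd1), glycosaminoglycans (Idua, Ids, Naglu, Gusb), galactosides and fucosides (Glb1, Fuca1), thioesters of palmitoylated proteins (Ppt1) and peptides (Tpp1).

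The summed CPM of the hydrolases was 4559, 4717 and 5153 after saline and 4012, 4546 and 4323 after poly(I:C). These sums did not overlap, though poly(I:C) replicate 2 was almost level with saline replicate 1. Man2b1 and Hexa, at means of 1336 and 828 CPM in saline, weigh most in the mean sum of 4810 CPM. The summed CPM of all genes tested averaged 1026330 after saline and 974695 after poly(I:C). That sum is set mainly by the TMM correction, so it does not measure RNA amount and gives no background for the hydrolase sums. Of all single genes tested, 28.4% did not overlap between groups. The median difference of the hydrolases moved from −0.11 to −0.041 without saline replicate 3, to −0.043 without poly(I:C) replicate 1 and to −0.02 without replicate 1 of each group.

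Of the soluble proteins that are not hydrolases, 0 were called. Psap was at 5401, 5152 and 5438 CPM after saline and 4369, 5358 and 4963 CPM after poly(I:C), with poly(I:C) replicate 2 inside the saline range (log2 −0.12, SE 0.14, interval −0.45 to 0.20, adjusted p = 0.606). Grn, progranulin, a secreted and lysosomal protein whose loss causes frontotemporal dementia, was at 1653, 1688 and 1893 CPM after saline and 1606, 2013 and 1745 CPM after poly(I:C), with overlap and a difference near 0 (log2 0.04, SE 0.13, interval −0.27 to 0.34, adjusted p = 0.887). Npc2, which hands cholesterol to NPC1, was at 468, 437 and 459 CPM after saline and 527, 497 and 497 CPM after poly(I:C). Its poly(I:C) libraries were all above its saline libraries (log2 0.16, SE 0.08, interval −0.03 to 0.35, adjusted p = 0.292).

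In the membrane proteins, 7 of 8 differences were below 0, the median was −0.24, and 0 were called. The median was −0.12 without poly(I:C) replicate 1, the library with the lowest value for 7 of the 8, and −0.196 without replicate 1 of each group. Summed CPM was 5716, 6153 and 6583 after saline and 4734, 5798 and 5430 after poly(I:C), so poly(I:C) replicate 2 lay inside the saline range. Laptm5 alone held 3015 of the mean sum of 6151 CPM in saline, so the sum largely follows that gene. Taken singly, 4 of the 8 genes did not overlap between groups (50%), beside 28.4% of all genes. The values of Cln3 were 115, 121 and 136 CPM after saline and 71.2, 97.6 and 86.6 CPM after poly(I:C). The groups were apart, with poly(I:C) replicate 1 lowest (log2 −0.55, SE 0.13, interval −0.86 to −0.23, adjusted p = 0.129). DESeq2 called Cln3 at an adjusted p of 0.0148 and limma-voom at 0.00969. Without replicate 1 of either group it was −0.46 (edgeR adjusted p = 0.0618). Of its annotated exon, 7.65% overlaps Apobr on the opposite strand.

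Cd68 was at 510.4, 476 and 545 CPM after saline and 332, 451 and 384 CPM after poly(I:C). The groups did not overlap (log2 −0.39, SE 0.13, interval −0.70 to −0.08, adjusted p = 0.185). Npc1, the membrane protein that exports cholesterol from the lysosome, was at 387, 394 and 432 CPM after saline and 273, 351 and 349 CPM after poly(I:C), again without overlap (log2 −0.32, SE 0.12, interval −0.61 to −0.03, adjusted p = 0.211). Leaving out replicate 1 of each group gave −0.26 for Cd68 and −0.21 for Npc1, against −0.39 and −0.32 with all libraries. Lamp1 was at 1006, 971 and 1028 CPM after saline and 868, 905 and 928 CPM after poly(I:C). Its groups were narrow and apart, and the difference was small (log2 −0.15, SE 0.09, interval −0.36 to 0.06, adjusted p = 0.332). Grtp1 overlaps 9.31% of its annotated exon on the opposite strand.

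Laptm5, a lysosomal membrane protein of blood-lineage cells, was at 2643, 3103 and 3300 CPM after saline and 2013, 2927 and 2509 CPM after poly(I:C), with poly(I:C) replicate 2 inside the saline range (log2 −0.28, SE 0.17, interval −0.69 to 0.13, adjusted p = 0.362). Mcoln1, the TRPML1 calcium channel, was at 67.9, 73.8 and 79.9 CPM after saline and 60.9, 71.2 and 62.1 CPM after poly(I:C), with overlap (log2 −0.19, SE 0.10, interval −0.43 to 0.05, adjusted p = 0.302). Lamp2, the partner of LAMP1 that also serves chaperone-mediated autophagy, was the exception above 0, at 0.18, and Scarb2, the sorting receptor of glucocerebrosidase, was at −0.04; each overlapped between groups. The sign of Scarb2 turned under 4 of 15 alternative settings.

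Of the 9 V-ATPase genes, 6 differences were below 0 and 3 above, and edgeR called 0. The 4 V0 genes were below 0, 3 of them without overlap between groups, where 28.4% of all genes did not overlap. Of the V1 genes 2 of 3, and of the accessory genes 1 of 2, were above 0. The difference between sectors was not tested, and the subunit genes outside the 38, given further on, had both signs in each sector. At an unadjusted p under 0.05, 3 of the 9 were lower, beside 10.8% of all genes, and 1 was higher (11.1%), beside 10.5%. The median of the 9, −0.08, was −0.18 without saline replicate 2, −0.131 without saline replicate 3 and 0.0085 without replicate 1 of each group. Atp6v0d1, the d subunit that links V0 to the central stalk, had the largest negative difference of them, at 128, 114 and 112 CPM after saline and 92.4, 95.3 and 85.6 CPM after poly(I:C). Its groups did not overlap (log2 −0.37, SE 0.09, interval −0.57 to −0.17, adjusted p = 0.120). It was called by DESeq2 (adjusted p = 0.00683) and by limma-voom (0.0117), and without replicate 1 of either group the log2 difference was −0.30 (edgeR adjusted p = 0.134).

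Atp6v0b and Atp6v0c encode proteolipids of the proton-carrying ring. Atp6v0b was at 249, 275 and 259 CPM after saline and 186, 244 and 208 CPM after poly(I:C) (log2 −0.30, SE 0.11, interval −0.57 to −0.03, adjusted p = 0.213), and 11.8% of its annotated exon overlaps the antisense gene Gm12841. Atp6v0c was at 69.6, 59.3 and 62.6 CPM after saline and 54.0, 55.9 and 55.1 CPM after poly(I:C). Its 3 poly(I:C) libraries were nearly equal and all below saline (log2 −0.22, SE 0.09, interval −0.42 to −0.01, adjusted p = 0.225). With replicate 1 of each group left out, the difference for Atp6v0c was −0.11. Atp6v0a1, an isoform of the a subunit through which protons pass, was at −0.25 with overlapping libraries. The summed CPM of the 4 V0 genes was 675, 710.5 and 715 after saline and 534, 633 and 559 after poly(I:C), without overlap. The sum of all genes tested is set mainly by the TMM correction and gives no background for the V0 sum.

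In the V1 sector Atp6v1h was at 38.1, 35.9 and 33.8 CPM after saline and 50.7, 40.3 and 41.7 CPM after poly(I:C). Every poly(I:C) library was above every saline library (log2 0.30, SE 0.12, interval 0.02 to 0.58, adjusted p = 0.217). Atp6v1a was at 0.16 with all libraries and at −0.07 without poly(I:C) replicate 1, and Atp6v1b2 was at −0.08. Summed, the 3 V1 genes gave 417, 313 and 324 CPM in saline and 419, 311 and 352 CPM in poly(I:C), which overlapped. In both groups the highest V1 sum was in replicate 1. Atp6ap2, the prorenin receptor, was at 0.28 and Atp6ap1 at −0.08, both with overlap.

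**Figure D5:**
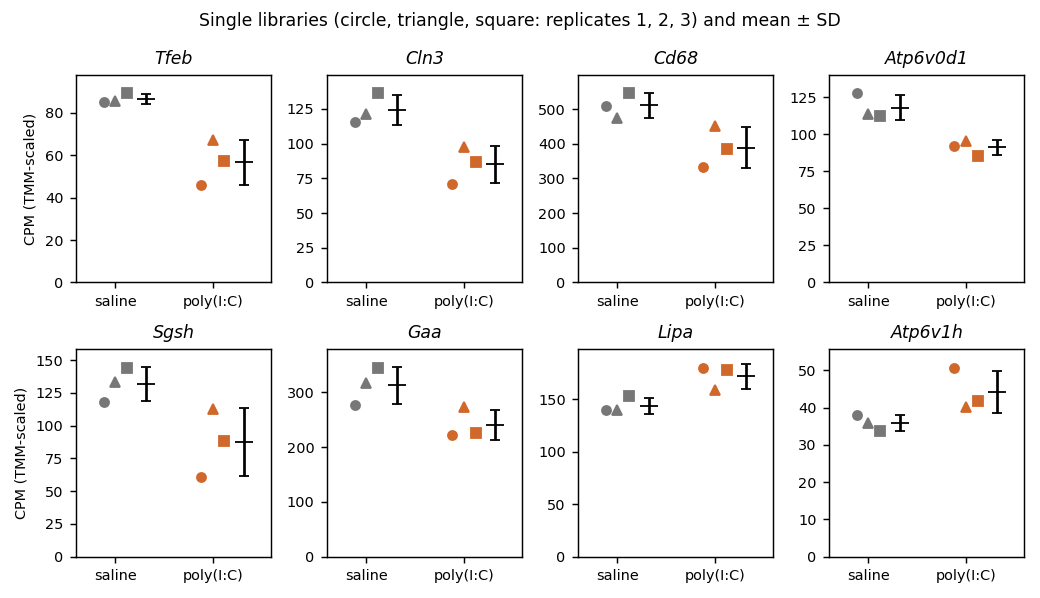
CPM of 8 members in single libraries (circle, triangle and square for replicates 1, 2 and 3), with the mean and SD of 3 libraries beside each group. The 8 genes shown are all from the 15 of 38 members whose groups do not overlap (39.5%), beside 28.4% of all genes tested. Among the 8, poly(I:C) is lower for Tfeb, Cln3, Cd68, Atp6v0d1, Sgsh and Gaa and higher for Lipa and Atp6v1h.

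Read by promoter, the 11 genes with an E-box in the promoters printed above had 9 differences below 0, a median of −0.19 and 6 without overlap between groups (54.5%). The 23 matched genes without it had 15 below 0 (65.2%), a median of −0.11 and 7 without overlap (30.4%). Among all genes tested 48.9% were below 0 and the median was 0.01, so the members without the motif also lay lower than all genes. In either direction 28.4% of all genes did not overlap. Both kinds of gene held members below and above 0, and no difference between them was tested. The split was not repeated with libraries left out, and tested genes outside the members were not split by the motif. The E-box genes without overlap were Lamp1, Cln3, Gaa, Sgsh, Atp6v0b and Atp6v0d1, and all 6 were lower (54.5%). Without the motif, 5 genes were lower without overlap (21.7%) and 2 were higher (8.7%), beside 14.3% lower and 14.0% higher of all genes. Gla and Atp6v1a carry the motif and were above 0.

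Other genes of the compartment, taken from lists of known function, gave 0 called genes in edgeR as well. Of 30 other hydrolases and cofactors, 11 were above 0 and 19 below, with a median of −0.04. Between groups 8 of the 30 did not overlap (26.7%), beside 28.4% of all genes. DESeq2 called 1 of them higher and 0 lower, where it called 4.26% and 4.18% of all genes. Naaa, which hydrolyses N-acylethanolamines, was at 101, 80.9 and 80.7 CPM after saline and 150.4, 116 and 127 CPM after poly(I:C). The groups did not overlap (log2 0.59, SE 0.13, adjusted p = 0.119), and DESeq2 called it higher at an adjusted p of 0.00502. Hyal1, a hyaluronidase, and Man2b2, an alpha-mannosidase, had log2 differences of 0.74 and −0.38, at adjusted p of 0.205 and 0.207. Of these 30, limma-voom called 2 higher and 4 lower, Naaa and Man2b2 among them. Over all genes it called 8.61% higher and 10.9% lower.

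For 25 other membrane proteins the split was 13 above and 12 below 0, with a median of 0.01. Between groups 8 of the 25 did not overlap (32%), beside 28.4% of all genes. Tpcn1, an endolysosomal cation channel, was at 145, 182 and 179.5 CPM after saline and 93.5, 129.6 and 110.1 CPM after poly(I:C) (log2 −0.60, SE 0.15, adjusted p = 0.130). Sidt2, a lysosomal transmembrane protein, was at −0.53 and Laptm4a, a relative of Laptm5, at 0.25. None of Tpcn1, Sidt2 and Laptm4a overlapped between groups. DESeq2 called Tpcn1 and Sidt2 lower and Laptm4a higher, where it called 4.18% of genes lower and 4.26% higher. Of the 25, limma-voom called 2 higher, beside 8.61% of all genes, and 4 lower, beside 10.9%, with Tpcn1, Sidt2 and Laptm4a included.

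The 11 other V-ATPase genes had 6 above and 5 below 0 and a median of 0.07. Between groups 2 of the 11 did not overlap (18.2%), beside 28.4% of all genes. DESeq2 called 1 of them higher and 0 lower, where it called 4.26% and 4.18% of all genes. Atp6v0a2, another isoform of the a subunit, was at 341, 362 and 371 CPM after saline and 432, 471 and 455 CPM after poly(I:C) and did not overlap (log2 0.34, SE 0.08, adjusted p = 0.131). DESeq2 called it higher at an adjusted p of 0.0168, whereas the a1 isoform gene among the members, Atp6v0a1, was at −0.25. Atp6v1f and Atp6v1d, of the V1 stalk, were at −0.23 and 0.24. The remaining genes, named here after their values were seen, gave −0.30 for Tcirg1, −0.03 for Atp6v0e, 0.08 for Atp6v0e2 and 1.03 for Atp6v0d2 in V0. Atp6v0d2 had few reads, 16, 9 and 5 counts after saline and 43, 13 and 8 after poly(I:C) (SE 0.78, adjusted p = 0.446). In V1 the remaining genes gave −0.08 for Atp6v1c1, −0.12 for Atp6v1e1, 0.07 for Atp6v1g1 and 0.23 for Atp6v1g2. Of these 8 V0 and V1 genes Atp6v1c1 alone did not overlap between groups.

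Sorting to the lysosome was represented by 13 genes, 7 above and 6 below 0, with a median of 0.03. Of these, 3 did not overlap between groups (23.1%), beside 28.4% of all genes. Gga1 and Gga2, adaptors that load hydrolase receptors at the trans-Golgi, were at −0.44 and −0.24, both without overlap. Gga1 was called lower by DESeq2 (adjusted p = 0.0483) and by limma-voom (0.0144). Gnptab, which makes the mannose 6-phosphate tag, was at 0.40 with overlap, and limma-voom alone called it, as higher (adjusted p = 0.0161). Among 20 genes of TFEB-family control and mTORC1 docking, 7 were above and 13 below 0, with a median of −0.07. Of these, 4 did not overlap between groups (20%), beside 28.4% of all genes. Flcn, folliculin, and its partner Fnip2, which act on the RagC and RagD GTPases that present TFEB to mTORC1, both had every poly(I:C) library below every saline library. Flcn was at 161, 191 and 204 CPM after saline and 104, 159 and 134 CPM after poly(I:C) (log2 −0.49, SE 0.17, adjusted p = 0.191), and limma-voom called it lower (adjusted p = 0.0176). Fnip2 was at 58.7, 63.5 and 72.3 CPM after saline and 49.6, 46.8 and 56.7 CPM after poly(I:C) (log2 −0.34, SE 0.11, adjusted p = 0.186). Rragd, the RagD gene, was at 3.65, 7.36 and 4.04 CPM after saline and 22.8, 7.12 and 9.98 CPM after poly(I:C), with its highest value in poly(I:C) replicate 1 (log2 1.41, SE 0.49, adjusted p = 0.195). DESeq2 called Rragd higher at an adjusted p of 0.0447, and limma-voom did not call it.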

How the data were processed

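Libraries were made from total RNA with a SMARTer cDNA kit and Nextera XT, per the labels' protocols, which mention no molecular identifiers. The authors deposited raw read counts per gene symbol, 1 column per library. Reads had been processed with fastp, HISAT2 and HTSeq on GRCm39, per the submitters' processing notes. Tool versions, settings and strand handling: not given in the sources used here. Members, gene lists and the rule for genes given in full (the 4 smallest p-values of each role, plus 8 set by name; 3 of each other list) were chosen with earlier results of these data known.

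From the counts, genes were kept by filterByExpr, scaled by TMM and tested with edgeR 4.0.16 (quasi-likelihood, all 6 libraries, no covariate; R 4.3.3), adjusted over 14727 genes and called under 0.05. SEs are the absolute log2 difference divided by the square root of F. DESeq2 1.42.0 and limma 3.58.1 were alternatives, with other scalings, filters, a replicate block and left-out libraries. The edgeR step was tested on simulated data. Replicates differed by more than counting noise (chi-square per gene between 22.5 and 122). Exon lengths and overlaps came from GENCODE M21, promoters from RefSeq (GRCm38.p6). Of 109 other lysosomal genes listed, 105 had a row.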

Additional observations from a re-analysis of the deposited data

How the results depend on the processing

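With edgeR, 0 members were called under RLE, upper-quartile or total-count scaling, without a filter, with a filter of 5 CPM in 3 libraries, with the replicate block, or without any 1 library or without replicate 1 of both groups. DESeq2 called 3 lower, and limma-voom called 11 lower and 1 higher; the cause was not tested. Over all genes, calls ran from 130 higher and 11 lower to 51 and 0 without poly(I:C) replicate 3, 53 and 0 without saline replicate 3, 66 and 2 without saline replicate 2, 355 and 214 without both replicates 1, 577 and 566 in DESeq2 and 1268 and 1608 in limma-voom. Of the 38 members, 30 kept their sign in all 15 settings, 21 of them lower and 9 higher.

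The titles share replicate numbers but do not say whether same-numbered samples were paired. Same-number correlations of deviations were 0.15, −0.09 and 0.25, and with 3 libraries a group they cannot decide this. With the replicate numbers as a block 0 members were called, the median was −0.12, and 171 genes were called higher and 89 lower. Same-numbered replicates were not each other's best match in every case.

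The median over all members (−0.12) was −0.045 with library totals only and between −0.178 and −0.101 without single libraries. For hydrolases (−0.11) it was −0.034 with totals only, −0.020 without both replicates 1, and between −0.158 and −0.041 without single libraries. For the V-ATPase (−0.08) it was −0.033 with upper-quartile scaling, −0.0096 with totals only, 0.0085 without both replicates 1, and between −0.185 and −0.066 without single libraries.

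Signs turned for 8 members, of which Atp6v1a had the largest difference with all libraries, 0.16. Under upper-quartile scaling Glb1 was at 0.0031 and Scarb2 at 0.011, and with totals only 0.028 and 0.036. Under limma-voom Grn was at −0.017 and Atp6v1b2 at 0.011. Without both replicates 1, Glb1 was at 0.013, Naglu at 0.039, Atp6v1b2 at 0.047 and Atp6ap1 at 0.0085. Without single libraries Grn ran from −0.0619 to 0.131, Atp6v1b2 from −0.185 to 0.0641, Smpd1 from −0.00585 to 0.0691, Scarb2 from −0.105 to 0.0379, Naglu from −0.25 to 0.0677 and Atp6v1a from −0.0703 to 0.327. Gla had the fewest reads of any member, at least 254 in each library, and every interval rests on 3 libraries a group.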
